A study of Mus musculus with 6 samples.

Results

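The aminoacyl-tRNA synthetases are the enzymes that join each amino acid to its transfer RNA (tRNA). The members were listed by symbol: 19 cytosolic enzymes or enzyme subunits, 16 mitochondrial enzymes whose symbols end in 2, and 3 scaffold proteins (Aimp1, Aimp2 and Eef1e1) that hold part of the cytosolic set together. All 38 had a row in a deposited table of 17217 genes, 16 of them under the older symbol without the final 1 (Wars for Wars1, for example), and the current symbols are used here. RNA was sequenced from 3 Knockout libraries, of bone marrow-derived macrophages from Cd74-/- mice, and 3 Control libraries, of the same cells from Cd74+/+ mice. Cells of both groups came from the femurs of mice aged 8 weeks, were grown with 30 ng/mL of the macrophage growth factor M-CSF and were then treated with 100 ng/mL lipopolysaccharide (LPS), a bacterial wall component, for 24 h. CD74 chaperones MHC class II molecules as their invariant chain and also binds the cytokine MIF at the cell surface, and the study asked how its loss changes the macrophage transcriptome.

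Each synthetase first activates its amino acid with ATP and then transfers it to the matching tRNA, and the charged tRNA is handed to an elongation factor for use on the ribosome. The enzymes fall into 2 unrelated catalytic classes, and mitochondria use a mostly separate set, encoded in the nucleus and imported. When charging lags, uncharged tRNA activates the kinase GCN2, which phosphorylates eIF2α and favours translation of the transcription factor ATF4. ATF4 in turn is known to bind the promoters of many cytosolic synthetase genes, of amino acid synthesis genes and of amino acid transporter genes, at sites called C/EBP-ATF response elements (CARE). In macrophages, Wars1 is also known as a gene induced by interferon-gamma.

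Values are given as TPM, a transcript level scaled for gene length and library size. Recovered depth was 51726673 to 59236633 reads in the Knockout libraries and 36445474 to 52517090 reads in the Control libraries. Cd74 stood at 65.3, 64.6 and 63.1 TPM in the Knockout libraries, against 632, 593 and 594 TPM in the Control libraries, which goes with the genotype labels. Its log2 fold change of -3.22 (SE 0.05, limma adjusted p = 1.78e-07) rests on values that were not whole reads. All 38 members were whole reads, Aimp1 only at a gene length found by search and the others at the annotated length. Of the 11 macrophage markers listed, 9 had a row and 8 of those averaged 1 TPM or more. Mrc1 was at 0.317 to 0.324 TPM in Knockout and 0.502 to 0.646 TPM in Control, and the markers Mertk and C1qa were not found in the table. The macrophage markers summed to 14210 to 15470 TPM in Knockout and 10840 to 11370 TPM in Control, but they did not all share a direction. Lyz2, the largest part of the sum, averaged 8658 TPM in Knockout and 5373 TPM in Control. Csf1r averaged 246 TPM in Knockout and 144 TPM in Control, and Itgam, Spi1, Cd68 and Cd14 also had higher means in Knockout. Adgre1 averaged 332 TPM in Knockout and 489 TPM in Control, and Fcgr1 and Mrc1 also had lower means in Knockout. Neutrophil markers (3 of 7 with a row) summed to 23.8 to 29.4 TPM in Knockout and 17.6 to 18.1 TPM in Control, with S100a8 at a mean of 18.97 TPM in Knockout and 5.01 TPM in Control, and Csf3r at 7.39 TPM in Knockout and 11.9 TPM in Control. Dendritic cell markers (4 of 7) summed to 6.24 to 7.02 TPM in Knockout and 5.36 to 8.26 TPM in Control. The B cell, erythroid and stromal lists (2 of 5, 3 of 5 and 2 of 5 with a row) summed to at most 0.813 TPM in any Knockout library and 1.245 TPM in any Control library, and no T and NK cell or mast and basophil marker had a row. The part of these markers in the results was not tested. Per the labels, all Knockout libraries belong to batch 2 and all Control libraries to batch 1, so an effect of the batch and one of the genotype cannot be told apart. Fewer cells of a type and less RNA per cell cannot be told apart either in bulk RNA. The protocol text given with every library speaks of WT mice, and no label says that the libraries of a group came from separate animals, so p-values measure the spread between these libraries.

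Cytosolic synthetase genes were mostly lower in Knockout cells (Wars1 fell by 29.2%). Most mitochondrial genes were not called, which was also true of most rows tested. Of the 19 cytosolic genes, 10 were called lower, 3 were called higher and 6 were not called (limma on log2(TPM + 1), Benjamini-Hochberg adjusted over all 13034 rows tested, threshold 0.05). Of all rows tested, 28.5% were called, 10.1% lower and 18.5% higher. Of the 16 mitochondrial genes, 1 was called lower (6.25%) and 2 were called higher (12.5%), and of the 3 scaffold genes, 1 was called higher. Standard errors were larger for the mitochondrial genes (median 0.086, against 0.045 for the cytosolic genes). Their fewer calls therefore do not by themselves show smaller changes. The median log2 fold change was -0.15 over the cytosolic genes, 0.14 over the mitochondrial genes and 0.04 over all rows tested. The 3 Knockout values lay apart from the 3 Control values on the low side for 12 cytosolic genes and on the high side for 6, and they overlapped only for Tars1. Among all rows tested, 50.0% did not overlap, 19.8% on the low side and 30.2% on the high side. The mitochondrial genes lay apart on the low side for 4 and on the high side for 7.

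**Figure D1:**
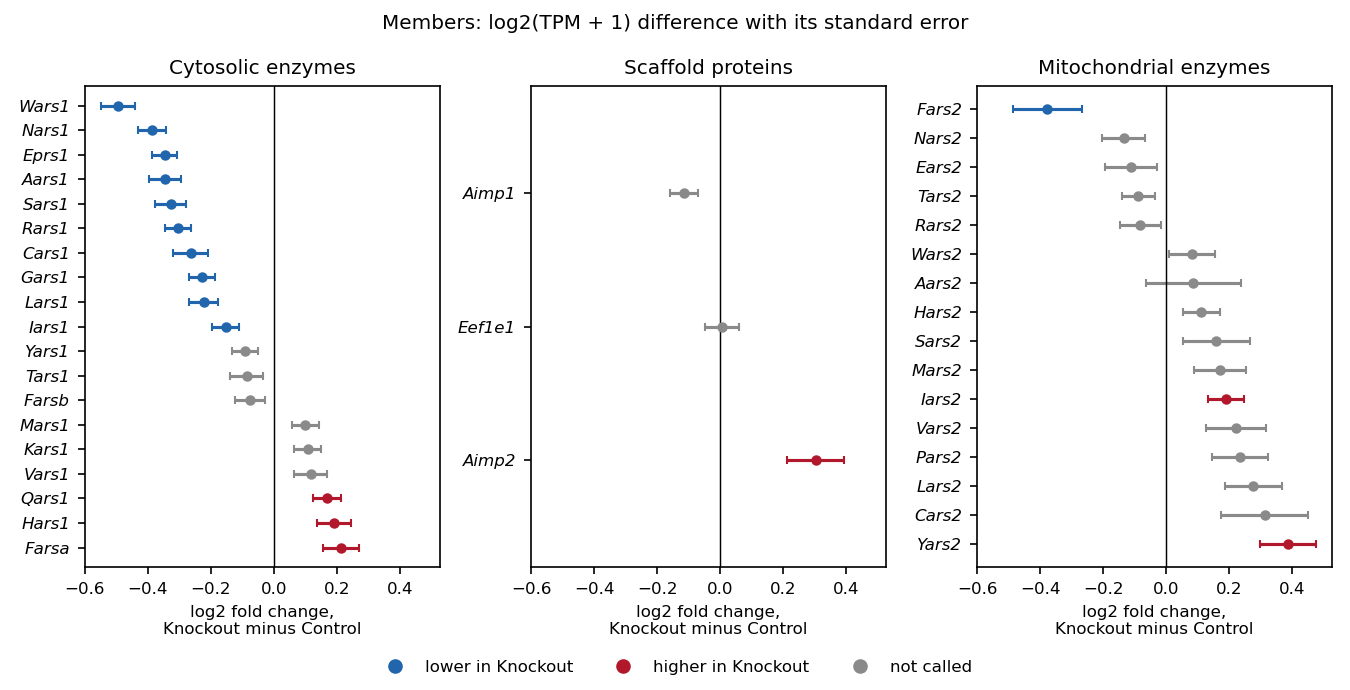
Log2 fold change of TPM + 1, Knockout minus Control, for all 38 members, with bars of 1 standard error from limma, blue points for members called lower, red for members called higher and grey for members not called. The cytosolic genes run from -0.50 (Wars1) to 0.21 (Farsa), and the mitochondrial genes from -0.38 (Fars2) to 0.39 (Yars2).

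The largest change among the members was that of Wars1, which charges tRNA with tryptophan. It stood at 186.5, 180.3 and 167 TPM in Knockout, against 258.5, 251 and 244.5 TPM in Control. Every Knockout library was below every Control library. Wars1 averaged 178 ± 9.72 TPM in Knockout and 251 ± 7.01 TPM in Control (SD, n = 3 each), so its level fell by 29.2% (log2 fold change -0.50, SE 0.05, limma adjusted p = 0.00269). Nars1, the asparagine enzyme, had the highest level of all members. It stood at 565, 566.5 and 534 TPM in Knockout, against 710, 735 and 735 TPM in Control (log2 fold change -0.39, SE 0.04, limma adjusted p = 0.00292). Eprs1, a single protein that charges both the glutamate and the proline tRNAs, stood at 144.5, 144 and 141 TPM in Knockout, against 181, 184 and 182 TPM in Control (-0.35, SE 0.04, limma adjusted p = 0.00292). For Nars1 and Eprs1 too, every Knockout library lay below every Control library.

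The other 7 called falls among the cytosolic genes were smaller. Aars1, for alanine, stood at 159, 157 and 149 TPM in Knockout, against 201, 203 and 189 TPM in Control (-0.35, SE 0.05, limma adjusted p = 0.00509). Sars1, for serine, stood at 533, 525 and 488 TPM in Knockout, against 654, 648 and 638 TPM in Control (-0.33, SE 0.05, limma adjusted p = 0.00535). Rars1, for arginine, stood at 439, 444 and 435 TPM in Knockout, against 530, 551 and 549 TPM in Control (-0.31, SE 0.04, limma adjusted p = 0.00416). In each of these 3 genes every Knockout library lay below every Control library. Cars1, for cysteine, stood at 84.3, 85.1 and 77.6 TPM in Knockout, against 103, 99.3 and 95.1 TPM in Control (-0.26, SE 0.06, limma adjusted p = 0.0143). Gars1, for glycine, whose gene gives both the cytosolic and the mitochondrial enzyme, stood at 402, 411 and 395 TPM in Knockout, against 461, 480 and 474 TPM in Control (-0.23, SE 0.04, limma adjusted p = 0.00956). Lars1, the leucine enzyme, which is also known as a leucine sensor for mTORC1, stood at 222, 221 and 220.2 TPM in Knockout, against 247, 262 and 265 TPM in Control (-0.22, SE 0.05, limma adjusted p = 0.0126). The Control libraries of Lars1 differed more among themselves than its Knockout libraries did. Iars1, for isoleucine, had the smallest called fall, with 205, 209.6 and 207 TPM in Knockout, against 229, 238 and 225 TPM in Control (-0.15, SE 0.04, limma adjusted p = 0.0348).

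**Figure D2:**
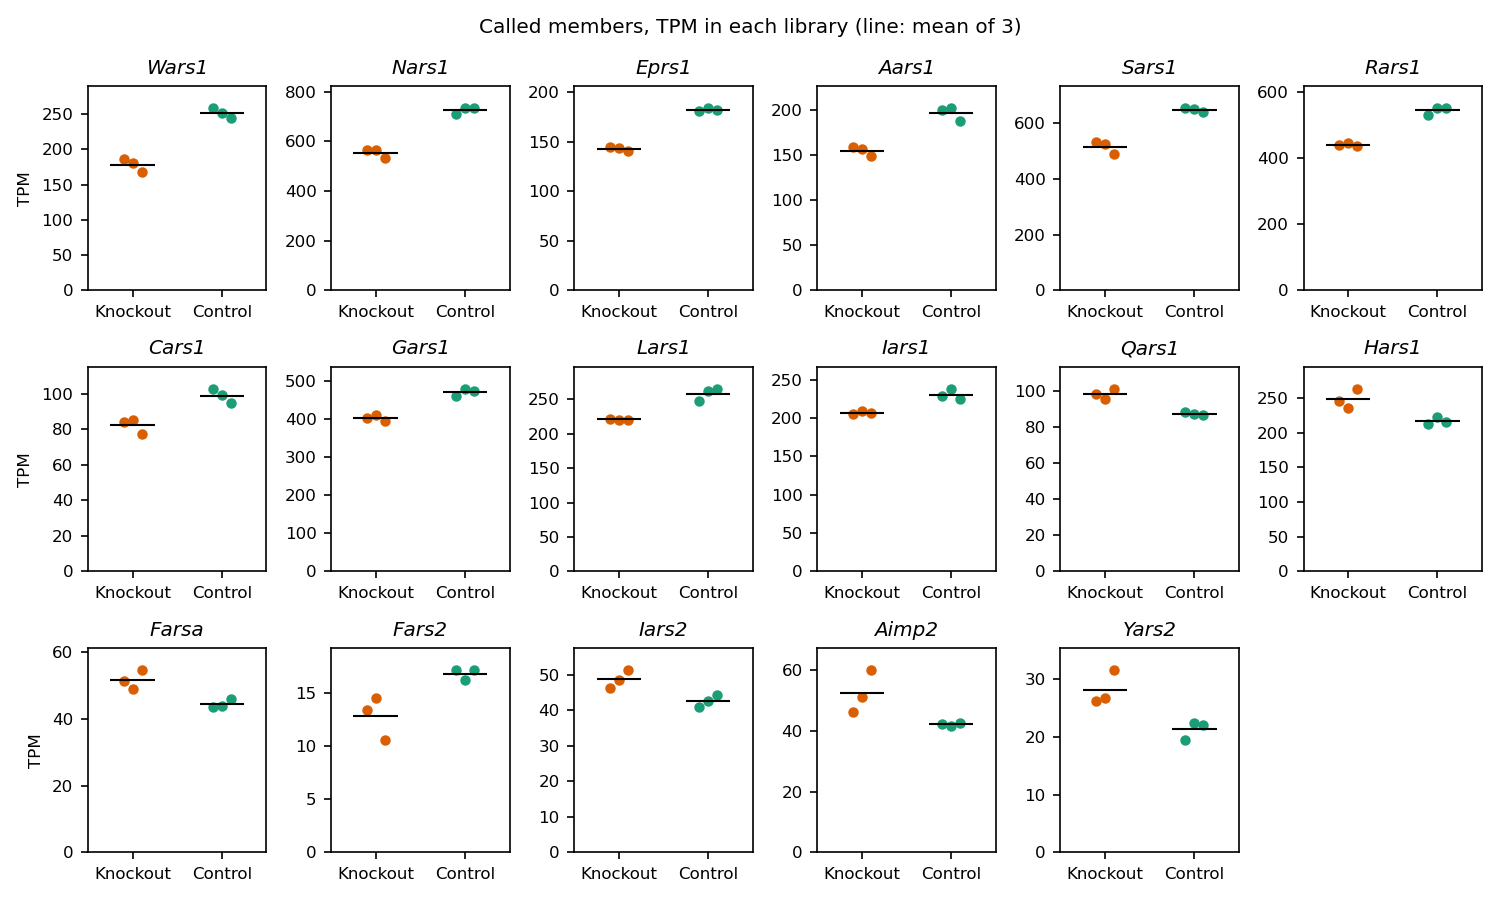
TPM of the 17 called members in each library, with Knockout points left of Control points, lines at the group means and a vertical axis of its own for each gene. In all 17 genes the 3 Knockout points and the 3 Control points do not overlap. The genes were called on these same values, so this adds no support to the calls. Among all rows tested, 50.0% did not overlap.

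Of these 10 falls, 8 stayed called under every one of 16 alternatives, which covered pseudocounts, filters, scalings, tests and the leaving out of each library. Lars1 lost its call without Control replicate 3 (limma adjusted p = 0.0557). Iars1 lost it when any library other than Knockout replicate 3 was left out (limma adjusted p of 0.0729 to 0.109). Aars1 shares 14.3% of its exon bases with Exosc6 on the same strand, so reads in that stretch cannot be assigned to 1 gene.

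The 3 cytosolic genes called higher were Farsa, Hars1 and Qars1, with means 12.6% (Qars1) to 16.4% (Farsa) above Control. Farsa, the catalytic subunit of the phenylalanine enzyme, stood at 51.5, 48.8 and 54.7 TPM in Knockout, against 43.6, 43.8 and 45.9 TPM in Control (0.21, SE 0.06, limma adjusted p = 0.0306). Hars1, for histidine, stood at 246, 235.5 and 263 TPM in Knockout, against 213, 223 and 216 TPM in Control (0.19, SE 0.05, limma adjusted p = 0.0367). Qars1, for glutamine, stood at 98.6, 95.8 and 101 TPM in Knockout, against 88.4, 87.5 and 86.9 TPM in Control (0.17, SE 0.04, limma adjusted p = 0.0278). All 3 calls were lost when libraries were rescaled by the median of ratios or by the upper quartile, and also without Knockout replicate 1 or any 1 Control library. Qars1 was lost without Knockout replicate 2 as well, and the adjusted p in the leave-outs that lost a call lay between 0.0576 and 0.109. Hars1 shares 7.97% of its exon bases with its neighbour Hars2 on the opposite strand, and no source used here says whether reads were counted by strand.

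The 6 cytosolic genes that were not called had log2 fold changes between -0.09 and 0.12. Kars1, whose gene gives the lysine enzyme of both compartments, had 174, 171 and 177 TPM in Knockout, against 166, 160.2 and 158 TPM in Control (0.11, limma adjusted p = 0.0995). Mars1, for methionine, differed by 0.10 and Vars1, for valine, by 0.12. Tars1, Yars1 and Farsb, for threonine, tyrosine and the second phenylalanine subunit, differed by -0.09, -0.09 and -0.08. Farsa and Farsb, the subunits of 1 enzyme, therefore had opposite signs, with Farsb at 289.5, 287 and 267 TPM in Knockout and 293, 297 and 298 TPM in Control. Mars1 shares 1.99% of its exon bases with the stress gene Ddit3, which was lower in Knockout.

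Grouping by catalytic class or by complex gave no group that moved as one. Of the 10 cytosolic class I genes, 6 were called lower and 1 higher (median log2 fold change -0.19). Of the 9 cytosolic class II genes, 4 were called lower and 2 higher (median -0.09). The multisynthetase complex joins several enzymes to the 3 scaffold proteins. Of its 10 listed genes, 4 were called lower and 2 higher (median -0.05), and of the 12 cytosolic genes outside it, 6 were called lower and 2 higher (median -0.16). Among all rows tested, 10.1% were called lower and 18.5% higher. The shares called higher in these groups, in the order given, were 10.0%, 22.2%, 20.0% and 16.7%, on both sides of that 18.5%. The difference between these groups was not tested.

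Among the scaffold genes, Aimp2 was called higher. It stood at 46.3, 51.1 and 60.1 TPM in Knockout, against 42.2, 41.7 and 42.5 TPM in Control (0.30, SE 0.09, limma adjusted p = 0.0428), so that the Knockout libraries were spread over a far wider range than the Control libraries. The call was lost without Knockout replicate 2 or any 1 Control library (limma adjusted p of 0.0858 to 0.107), and under both rescalings. Aimp2 shares 29.4% of its exon bases with Eif2ak1, which lies on the opposite strand and was also higher (0.17, limma adjusted p = 0.0295). Eef1e1, the scaffold gene with the highest level, had 104, 107 and 115 TPM in Knockout, against 105, 111 and 108 TPM in Control, and the groups overlapped. Aimp1 had 48.8, 49.3 and 49.3 TPM in Knockout, against 51.5, 53.7 and 54.7 TPM in Control (-0.11, limma adjusted p = 0.0988).

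The mitochondrial enzymes charge the tRNAs encoded by mitochondrial DNA, and their levels were far lower than those of the cytosolic enzymes. Their mean TPM had a median of 8.91, against 176 for the cytosolic genes, and recovered reads per gene and library ran from 238 to 7667, against 2239 to 53564 for the cytosolic genes. The median standard error was larger, at 0.086 for the mitochondrial genes against 0.045 for the cytosolic genes on the log2 scale. Positive log2 fold changes were found in 11 of the 16 genes and negative ones in 5. The highest level was that of Rars2, the arginine enzyme, with 54.2, 57.5 and 55.0 TPM in Knockout, against 54.4, 59.3 and 63.2 TPM in Control, and its groups overlapped.

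Yars2, the mitochondrial tyrosine enzyme, had the largest rise of all members. It stood at 26.1, 26.8 and 31.6 TPM in Knockout, against 19.5, 22.4 and 21.98 TPM in Control (0.39, SE 0.09, limma adjusted p = 0.0187). Its call was lost without Control replicate 1 or Control replicate 3 (limma adjusted p of 0.0513 to 0.0603). Iars2, for isoleucine, stood at 46.4, 48.6 and 51.3 TPM in Knockout, against 40.9, 42.6 and 44.3 TPM in Control (0.19, SE 0.06, limma adjusted p = 0.0447). Its call was kept without Knockout replicate 1 and lost without each of the other 5 libraries (limma adjusted p of 0.0742 to 0.119), and also lost under both rescalings (0.0880 and 0.103). Iars2 shares 22.9% of its exon bases with Rab3gap2 on the opposite strand, which had a log2 fold change of 0.00 (limma adjusted p = 0.979).

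Fars2, the mitochondrial phenylalanine enzyme, was the mitochondrial gene called lower. It stood at 13.4, 14.5 and 10.6 TPM in Knockout, against 17.2, 16.2 and 17.2 TPM in Control (-0.38, SE 0.11, limma adjusted p = 0.0400). The call was lost without Knockout replicate 1 or any 1 Control library (limma adjusted p of 0.0578 to 0.110). Fars2 shares 8.72% of its exon bases with Nrn1 and 2.00% with Lyrm4, which was itself lower (-0.28, limma adjusted p = 0.0348). The other 13 mitochondrial genes were not called. Lars2, for leucine, came nearest, with 8.46, 8.10 and 9.33 TPM in Knockout, against 7.49, 6.81 and 6.55 TPM in Control (0.28, SE 0.09, limma adjusted p = 0.0572). Cars2, Pars2, Vars2, Mars2, Sars2 and Hars2 had values between 0.11 and 0.31, Aars2 and Wars2 had 0.09 and 0.08, and Rars2, Tars2, Ears2 and Nars2 lay between -0.14 and -0.08.

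Summed over its 19 genes, the cytosolic set took 4267, 4241 and 4154 TPM in Knockout, against 4837, 4938 and 4863 TPM in Control. The mitochondrial set took 274, 280.4 and 291 TPM in Knockout, against 262, 271 and 274 TPM in Control, and the scaffold genes took 199, 207 and 224 TPM in Knockout, against 198.5, 206 and 205 TPM in Control. The Knockout and Control sums lay apart for the cytosolic set, with Knockout lower, whereas the scaffold sums overlapped. The mitochondrial sums lay only narrowly apart, with Knockout higher (lowest Knockout sum 274.4 TPM, highest Control sum 273.6 TPM). These sums were not rescaled, and the median log2 difference of all rows tested was 0.04 as deposited, also towards Knockout. The cytosolic sum was 15.6, 15.1 and 14.3 times the mitochondrial sum in Knockout, against 18.5, 18.2 and 17.8 times in Control.

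Within each library the cytosolic enzyme was also set against the mitochondrial enzyme for the same amino acid, over 17 pairs and 16 amino acids. The level of the cytosolic gene exceeded that of its partner in every pair and library, by 2.54 to 83.6 times. The log2 ratio of TPM + 1 was lower in Knockout, with no overlap between the groups, in 11 pairs, higher with no overlap in 2 pairs, and overlapping in 4 pairs. For comparison, 50.0% of all rows tested, taken singly, did not overlap. The share for ratios of other gene pairs was not computed. The median difference over the pairs was -0.25. An exact permutation test over 3 against 3 libraries cannot give a p below 0.1, and after Benjamini-Hochberg adjustment over the 17 pairs the smallest value was 0.131, so no single pair could pass the threshold.

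The largest falls in ratio were those of proline, tryptophan and cysteine. For tryptophan, the log2 ratio of Wars1 to Wars2 was 4.00, 3.89 and 3.67 in Knockout, against 4.49, 4.41 and 4.39 in Control (difference -0.58), with the fall in Wars1. For proline, Eprs1 over Pars2 gave 3.97, 3.79 and 3.87 in Knockout, against 4.54, 4.39 and 4.42 in Control (-0.58), with Eprs1 lower and Pars2 at 0.23 on the log2 scale, not called. For cysteine, Cars1 over Cars2 gave 3.51, 3.27 and 2.95 in Knockout, against 4.04, 3.69 and 3.74 in Control (-0.58), with Cars1 lower and Cars2 at 0.31, not called. In these 3 pairs every Knockout ratio lay below every Control ratio. The leucine and serine pairs differed by -0.50 and -0.49. For tyrosine, Yars1 over Yars2 gave 1.81, 1.74 and 1.54 in Knockout, against 2.29, 2.12 and 2.11 in Control (-0.48), where Yars1 was not called and Yars2 was higher. The 2 pairs that went the other way were both of phenylalanine, where Fars2 was lower: Farsa over Fars2 differed by 0.59 and Farsb over Fars2 by 0.30. Both share Fars2 and are not independent. The glutamate and proline pairs, both lower, share Eprs1 and are not independent either. Histidine, methionine, threonine and valine were the amino acids whose ratios overlapped.

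**Figure D3:**
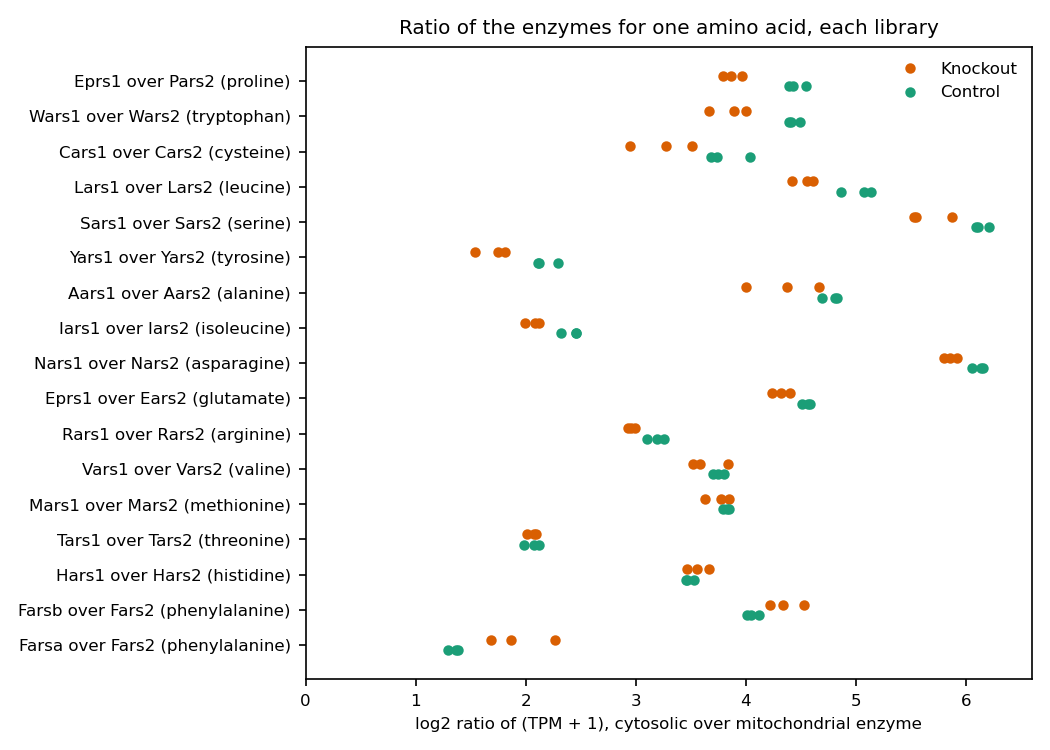
Log2 ratio of TPM + 1 between the cytosolic and the mitochondrial enzyme of each of 17 pairs in each library, with Knockout points in orange and Control points in green. In 11 pairs all Knockout points lie left of all Control points, and in both phenylalanine pairs they lie to the right. Of all rows tested, taken singly, 50.0% did not overlap.

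Promoters are shown because the cytosolic genes include known ATF4 targets. RefSeq windows of 300 bases (250 before the transcription start and 50 from it, build GRCm38.p6) were at hand for 29 of the 38 members, 12 of them cytosolic. Wars1, Nars1, Rars1, Lars1 and Cars1, all called lower, had no window, so no motif was searched in their promoters. The CARE letters TGATGNAA, searched on both strands, were found in 5 of the 12 cytosolic windows, 0 of 3 scaffold windows and 0 of 14 mitochondrial windows. They were found in 4.51% of 27025 windows of all genes and in 2.85% of the 9126 windows of tested genes. The following stretches run from 130 bases before the start to 30 bases from it, 5′ to 3′ on the gene's strand, with the CARE match in capitals (its reverse complement where it lies on the other strand). They lie at chr8:111033712-111033871 (plus strand) for Aars1, chr6:55037871-55038030 (plus) for Gars1, chr13:49682000-49682159 (plus) for Iars1, chr15:11399629-11399788 (minus) for Tars1 and chr4:129189773-129189932 (plus) for Yars1.
Aars1: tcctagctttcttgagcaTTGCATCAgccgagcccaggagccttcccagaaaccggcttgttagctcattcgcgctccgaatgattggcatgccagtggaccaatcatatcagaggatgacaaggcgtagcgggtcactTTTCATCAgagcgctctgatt
Gars1: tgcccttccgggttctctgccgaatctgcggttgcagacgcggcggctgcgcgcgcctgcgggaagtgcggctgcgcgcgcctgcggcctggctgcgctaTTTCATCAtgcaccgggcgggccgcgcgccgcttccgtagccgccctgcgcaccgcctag
Iars1: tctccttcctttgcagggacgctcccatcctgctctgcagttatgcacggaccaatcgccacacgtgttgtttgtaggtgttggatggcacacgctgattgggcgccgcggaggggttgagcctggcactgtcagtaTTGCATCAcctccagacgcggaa
Tars1: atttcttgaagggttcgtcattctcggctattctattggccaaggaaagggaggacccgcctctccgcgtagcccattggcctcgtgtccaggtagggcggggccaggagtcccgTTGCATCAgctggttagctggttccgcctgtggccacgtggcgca
Yars1: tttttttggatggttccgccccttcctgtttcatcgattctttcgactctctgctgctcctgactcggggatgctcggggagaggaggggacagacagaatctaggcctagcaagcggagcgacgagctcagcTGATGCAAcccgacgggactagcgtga

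The match began 112 bases before the start in Aars1, 30 bases before it in Gars1 and 15 before it in Tars1. Counted with the start as the first base, it began at base 8 in Iars1 and at base 4 in Yars1. Aars1 had a further match that began at base 10, counted in the same way. No match overlapped one of the other motifs searched. Aars1, Gars1 and Iars1 were called lower, whereas Tars1 and Yars1 were not called. Of the 5 cytosolic genes called lower that had a window, 3 held the letters, and of the 7 other cytosolic genes with a window, 2 did. The cytosolic genes with the largest falls among those with a window but no match were Eprs1 and Sars1, whose stretches lie at chr1:185362914-185363073 (plus) and chr3:108445230-108445389 (minus). They are shown for comparison, in lower case throughout, and the absence of these letters covers this window only.
Eprs1: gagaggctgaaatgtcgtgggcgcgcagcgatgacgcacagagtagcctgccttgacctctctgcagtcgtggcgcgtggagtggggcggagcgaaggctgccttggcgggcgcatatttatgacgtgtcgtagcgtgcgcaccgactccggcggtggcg
Sars1: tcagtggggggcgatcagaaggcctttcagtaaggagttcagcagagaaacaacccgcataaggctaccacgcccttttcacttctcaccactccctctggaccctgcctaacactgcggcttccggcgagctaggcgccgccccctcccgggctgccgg

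Other letters were searched on both strands in the same windows. The GAS letters TTCNNNGAA, found in interferon-gamma-induced genes, were in 2 of 12 cytosolic, 1 of 3 scaffold and 1 of 14 mitochondrial windows, against 8.27% of tested genes. The interferon-stimulated response element, searched as TTTC, any 2 bases, then TTTC, was in 1, 0 and 0 of these windows, against 3.97%. The NRF1 site, searched as GCGCA, any base, then GCGC, was in 3, 1 and 2, against 12.3%, and the E-box CACGTG, bound by MYC and TFE3 among others, in 4, 0 and 1, against 1097 of the 9126 tested genes. The YY1 letters AAGATGGC were in 1, 1 and 3, against 5.74%. A match is a description of the sequence and does not show binding.

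Genes of the ATF4 pathway, the regulator of many synthetase genes, were mostly lower in Knockout. Of 12 tested, 9 were called lower and 0 higher, against 10.1% and 18.5% of all rows tested. This list and the other pathway lists were chosen with earlier results of these data known, so their shares only describe the lists. The median log2 fold change was -0.53. Atf4 itself stood at 589, 615 and 560 TPM in Knockout, against 737, 697 and 727 TPM in Control (-0.29, limma adjusted p = 0.00818). The 4 largest falls were those of Cebpb (-1.65), a C/EBP factor of inflammatory genes, Ddit3 (-1.21), the stress factor CHOP, Nupr1 (-1.11), a stress-induced nuclear protein, and Atf3 (-1.03), a repressor of cytokine genes. Ddit3 stood at 270, 254 and 156 TPM in Knockout, against 539, 489 and 507 TPM in Control, and Knockout replicate 3 was the lowest library. Each of these 4 genes fell further than Wars1 and stayed called when any 1 library was left out.

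Genes of amino acid synthesis were lower as well, with 8 of 13 called lower and 1 higher (median -0.35), the higher call being lost under both rescalings. Among all rows tested, 10.1% were called lower and 18.5% higher. The largest falls were those of Pycr1 (-0.74), which makes proline, Cth (-0.74), which makes cysteine, Gpt2 (-0.50), an alanine transaminase, and Psph (-0.46), which makes serine. Cth stood at 118, 117 and 105 TPM in Knockout, against 180.5, 195 and 193 TPM in Control. Pycr1 lost its call without Knockout replicate 2 or any 1 Control library (limma adjusted p of 0.0647 to 0.105), and Gpt2 lost it without Control replicate 1 (0.0513). Of 9 amino acid transporter genes tested, 3 were called lower (33.3%) and 1 higher (11.1%), with a median of -0.06. Slc3a2, the heavy chain shared by several exchangers, fell by 0.68 on the log2 scale, Slc6a9, a glycine carrier, by 0.57 and Slc1a4, a neutral amino acid carrier, by 0.39, while Slc1a5, the glutamine carrier, rose by 0.53. Each of these 4 stayed called when any 1 library was left out. CARE letters were in 4 of 12 windows of the ATF4 pathway, 3 of 13 of amino acid synthesis and 2 of 6 of the transporters.

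The kinases that phosphorylate eIF2α and their feedback partners had 5 of 11 called higher and 1 lower (median 0.17), against 18.5% and 10.1% of all rows tested. Under each of the 2 rescalings, however, 2 were called higher and 2 lower. The fall was that of Ppp1r15a (-1.36), which recruits the phosphatase that reverses eIF2α phosphorylation and is itself induced by stress, with 157, 147.5 and 104 TPM in Knockout, against 362.5, 338 and 335 TPM in Control. Eif2ak2, the double-stranded RNA kinase PKR, was higher (0.52), as were Ppp1r15b (0.25), the constitutive partner of the same phosphatase, and Eif2b4 (0.19), a subunit of the exchange factor that eIF2α phosphorylation blocks. Ppp1r15b lost its call without Knockout replicate 2, Control replicate 1 or Control replicate 3 (limma adjusted p of 0.0528 to 0.0700), and Eif2b4 when any library other than Knockout replicate 1 was left out (0.0681 to 0.139) and under both rescalings (0.0944 and 0.0981). Ppp1r15a and Eif2ak2 stayed called in every leave-out.

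**Figure D4:**
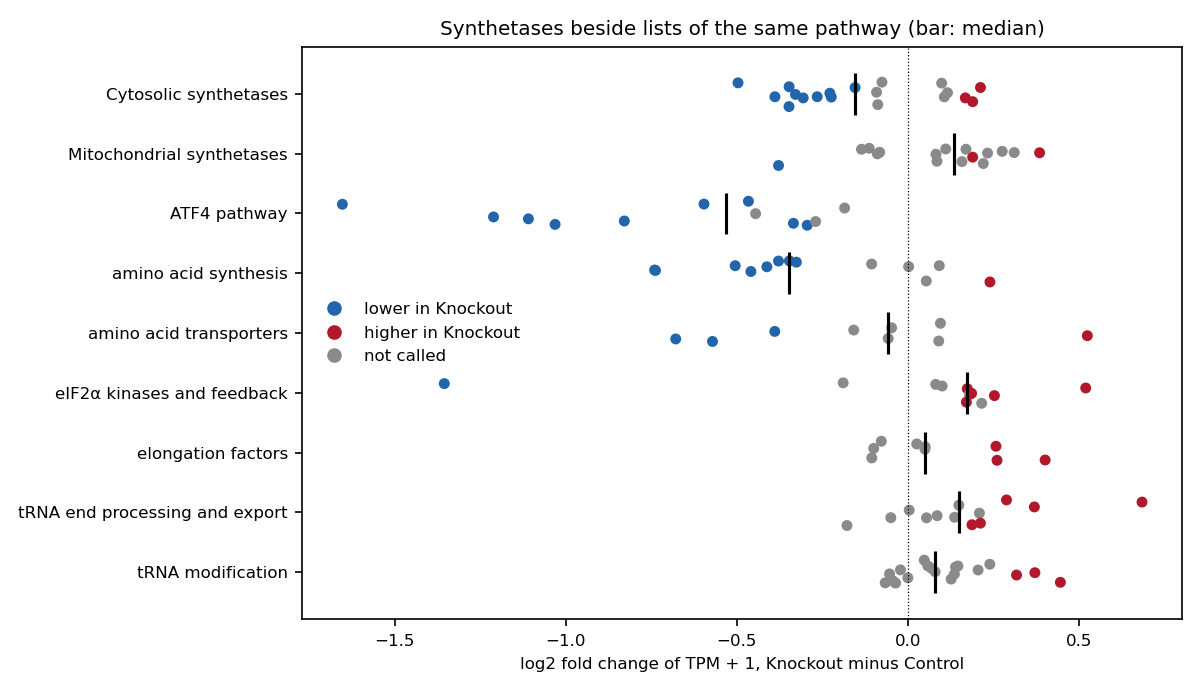
Log2 fold change of TPM + 1, Knockout minus Control, for each tested gene of the cytosolic and mitochondrial synthetases and 7 pathway lists, with blue points for genes called lower, red for genes called higher, grey for genes not called and a bar at each median. The ATF4 pathway (median -0.53) and amino acid synthesis (-0.35) lie furthest to the negative side, and the mitochondrial enzymes have a median of 0.14.

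Of 13 tested genes of tRNA end processing and export, 5 were called higher and 0 lower (median 0.15), against 18.5% and 10.1% of all rows tested, and 2 were called higher under either rescaling. The largest differences were those of Pop1 (0.69), a protein of RNase P, Tsen54 (0.37), a subunit of the tRNA splicing endonuclease, Elac2 (0.29), which trims the 3′ end, and Ssb (0.21), the La protein. Of 19 tRNA modification genes, 3 were called higher and 0 lower (median 0.08), a share of 15.8% higher that is near the 18.5% of all rows. Those called included Pus7 (0.45), a pseudouridine synthase, and Nsun2 (0.37), a cytosine methyltransferase. Elac2 lost its call without Knockout replicate 2, Knockout replicate 3, Control replicate 1 or Control replicate 3 (limma adjusted p of 0.0770 to 0.103). Ssb lost it when any library other than Knockout replicate 3 was left out (0.0504 to 0.1003), and both lost it under either rescaling (0.0524 to 0.0654). Pop1, Tsen54, Pus7 and Nsun2 stayed called in every leave-out.

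Of 9 elongation factor genes, which take the charged tRNA to the ribosome and move it, 3 were called higher and 0 lower (median 0.05). Among all rows tested, 18.5% were called higher and 10.1% lower. The 3 elongation factors were the mitochondrial Gfm1 (0.40) and Tufm (0.26) and the cytosolic exchange factor subunit Eef1d (0.26). Gfm1 lost its call without Control replicate 1 or 3 (limma adjusted p of 0.0729 to 0.0746), Tufm without Control replicate 2 or 3 (0.0599 to 0.0827), and Eef1d without Knockout replicate 2 or any 1 Control library (0.0755 to 0.114). With median-of-ratios scaling 1 elongation factor was called higher and 1 lower, and with upper-quartile scaling 2 were called higher and 1 lower. Eef1d lost its call under both scalings (0.0608 and 0.0824), and Tufm under the median of ratios (0.0514). Of 4 genes of mitochondrial transamidation and formylation, 1 was called higher (median 0.12): Mtfmt (0.21), which formylates the initiator tRNA, and which lost its call without Knockout replicate 1, Knockout replicate 2 or any 1 Control library (0.0506 to 0.0827) and under both scalings (0.0551 and 0.0574). Of 8 other synthetase and editing genes tested, 2 were called lower and 1 higher (median 0.02). The share called higher, 12.5%, was below the 18.5% of all rows. Sepsecs (-0.46), which converts phosphoserine to selenocysteine on its tRNA, was lower in every leave-out. Prorsd1 (-0.24), a relative of bacterial proline editing domains, lost its call without Knockout replicate 1 or any 1 Control library (0.0531 to 0.0911). Tars3 (0.32), a threonine enzyme related to Tars1, lost it when any 1 library was left out (0.0562 to 0.111) and under both scalings (0.0505 and 0.0556).

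The interferon-gamma and LPS-inducible list, set beside Wars1, was split, with 3 of 8 called lower and 3 higher (median 0.01), or 3 lower and 1 higher under either rescaling. Among all rows tested, 10.1% were called lower and 18.5% higher. The guanylate-binding protein genes Gbp5 (-1.71) and Gbp2 (-0.67) and the chemokine gene Cxcl10 (-1.22) were lower, whereas Irgm1 (0.71), an immunity-related GTPase gene, was higher. Gbp5 stood at 8.76, 7.53 and 3.64 TPM in Knockout, against 29.7, 19.7 and 20.3 TPM in Control. Gbp2 lost its call when any 1 Control library was left out (limma adjusted p of 0.0680 to 0.0970), and the other 3 named genes kept theirs in every leave-out.

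Knockout replicate 3 lay at the edge of the Knockout group in most called members. It had the lowest Knockout value in 10 of the 11 members called lower and the highest in 6 of the 6 called higher. The same was true of 79.2% of all rows called lower and 75.2% of all rows called higher. Without Knockout replicate 3, the cytosolic genes had 10 called lower and 3 higher, as with it.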

How the data were processed

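RNA was sequenced from 6 libraries, 3 Knockout and 3 Control, per the labels. The deposited table gives TPM for each gene and library, and this unit was inferred from the column sums (991721 to 998572) and the steps of low values, as the header states none. The submitters' processing notes name GRCm39 and DESeq2 but not what each was used for; the aligner, counter and strand setting are not given in the sources used here. No unmapped column of per-sample values was present (0 columns). Reads were recovered from TPM with GENCODE M21 union exon lengths. Of the rows, 16655 (96.7%) were whole in all libraries within 0.02 read, 534 more were whole at a searched length (within 0.003 read) and 28, among them Cd74, at none. A single read per kilobase corresponds to 0.0558 to 0.0883 TPM.

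Differences were tested with a two-sided linear model fitted by lmFit in limma 3.58.1 (R 4.3.3) to log2(TPM + 1), moderated by eBayes with a mean-variance trend and robust priors. Rows with a mean TPM under 1 were left out, which kept 13034 rows, and p-values were adjusted by Benjamini-Hochberg over all of them. Adding 1 TPM before taking logs makes fold changes of low genes too small. The limma test was also run on simulated counts with known fold changes and no batch effect. That run does not bear on the batch of these libraries, and its outcome is not reported here. Pair ratios were compared with two-sided exact permutation tests. No term for batch could be fitted. The members and the gene lists were chosen with earlier results of these data known. All members were accounted for; per-library values are given for called members (up to 10 in a class) and for the member with the highest mean in each class, and up to 4 called genes with the largest change are named in each pathway list. Other members and lists are given further values to show their spread, and Exosc6, Eif2ak1, Rab3gap2, Nrn1, Lyrm4 and Atf4 are named as overlapping or central genes after their values were seen. Protein sequences were not analysed here, and 1 called gene of the tRNA modification list is not reported here.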

Additional observations from a re-analysis of the deposited data

How the results depend on the processing

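No member reversed a called direction under any alternative tried, whereas the scaffold median, near 0, changed sign. Of 608 values of single members over 16 alternatives, 542 kept their side of the threshold, 58 lost their call and 8 gained one. The 542 include values of members not called, and such values could change sign. Eef1e1, for example, was positive in the values as deposited and negative under median-of-ratios and upper-quartile scaling. Aars1, Cars1, Eprs1, Gars1, Nars1, Rars1, Sars1 and Wars1 kept their calls in all 16 alternatives. The counts of called genes moved more, and the cause was not tested. With no filter, 0 scaffold genes were called higher, and 1 mitochondrial gene higher and 0 lower. With median-of-ratios scaling, cytosolic calls were 0 higher (median -0.20), scaffold calls 0 higher and 1 lower, mitochondrial calls 1 higher, and the 10 pathway lists together had 10 higher, against 23 in the values as deposited. With upper-quartile scaling these were 0 higher (median -0.21), 0 higher and 1 lower, 1 higher, and 11 higher. Both scalings shifted the median of all rows to -0.00023 and -0.0077, against 0.04 as deposited, and the share of calls that were higher was 50.8% and 52.3%, against 64.7% as deposited. limma without trend and robust settings gave 0 cytosolic and 0 scaffold genes higher, 0 mitochondrial genes lower and 15 pathway genes higher. limma-voom on recovered reads gave a cytosolic median of -0.18, with 0 scaffold genes higher and 1 lower. Same-numbered libraries of the groups had correlations of 0.13, -0.08 and 0.03 in their deviations, so the numbers do not pair them; with the replicate number as a block, 1 cytosolic gene was called higher, and the single higher call of the amino acid synthesis list and that of the mitochondrial transamidation and formylation list were lost (0 in each).

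With each library left out in turn, 8 to 10 cytosolic genes were called lower and 0 to 3 higher (median -0.17 to -0.13), 0 to 1 mitochondrial genes lower and 0 to 2 higher (median 0.12 to 0.16), and 0 scaffold genes lower and 0 to 1 higher (median -0.03 to 0.03). The pathway lists together had 8 to 19 genes higher and 22 to 29 lower, and all rows 1313 to 2096 higher and 669 to 1219 lower, with the fewest of both without Control replicate 3. The pairs had 11 to 12 lower and 2 to 3 higher ratios without overlap, and the share for other gene pairs was not computed. The lowest read number of a member in any library was 238, for the mitochondrial gene Pars2.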
